A study of Mus musculus with 4 samples.

Results

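Aplnr and Apln, the genes of the apelin receptor and its ligand, were followed through 4 single-cell libraries of the mouse Tbx1Cre lineage. Both were matched by Ensembl identifier (ENSMUSG00000044338 and ENSMUSG00000037010) in each gene table and make up 2 of the 27514 identifiers that all 4 tables share. Aplnr lies on chromosome 2 from 85136360 to 85139923 and Apln on chromosome X from 48025146 to 48034853 (GRCm38, RefSeq gene models). Swiss Webster embryos carried Rosa26-GFP flox/+, and the sorted GFP-positive, DAPI-negative cells were captured by droplet 3′-end sequencing. At E8.5 the upper part of the body was taken, and at E9.5 the pharyngeal apparatus and heart together with the back. Control embryos (Ctrl) were Tbx1Cre/+ and mutants (cKO) were Tbx1Cre/flox at each stage. Because the Cre knock-in inactivates its copy of Tbx1, the controls were heterozygous and cannot be read as wild type. Tissue of several embryos was pooled, each group had 1 library, and no library was repeated, so genotype and library cannot be told apart, nor can stage, dissection and library. Only cells with a history of Tbx1Cre activity were sorted, so any ligand made outside that lineage was not measured.

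Apelin is a secreted peptide that signals through APLNR, a G protein-coupled receptor that couples mainly to inhibitory Gi proteins and is shut off by β-arrestins. The other ligand of the receptor, ELABELA, is encoded by Apela. In the embryo the pathway is known for guiding mesodermal progenitors towards the heart and for vascular growth, in which Apln marks sprouting tip cells and Aplnr marks veins and the endothelium behind the tip.

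The libraries held 1434 (Ctrl E8.5), 1090 (cKO E8.5), 5453 (Ctrl E9.5) and 6266 (cKO E9.5) cell barcodes, with a median of 15910.5 to 23984 UMIs (unique molecular identifiers, counted transcripts) per barcode. Between 2 and 10 barcodes were shared by any pair of libraries, other than the 55 shared by the E9.5 pair. Cells were called endothelial when they held at least 3 UMIs of Cdh5 and Pecam1 together, the adhesion molecules of endothelial junctions, which gave 21, 13, 317 and 69 cells in the same order. The remaining cells were called epithelial, neural or mesoderm from their own marker genes, none of which is Aplnr or Apln, and mesoderm held 1141, 945, 3892 and 5282 cells. The 8 endothelial markers that no gate used summed to between 2041.0 and 3164.5 UMIs per 1000000 UMIs (UPM, the unit of every level below) in the endothelial cells and to 205 (Ctrl E8.5), 191 (cKO E8.5), 143 (Ctrl E9.5) and 93.3 (cKO E9.5) in mesoderm, and none of the 8 was at 0 in any endothelial gate. The source label reads pharyngeal mesoderm, but at E9.5 13.6% of Ctrl and 3.32% of cKO barcodes were epithelial and 5.81% and 1.1% endothelial. Tbx1 itself was counted over all E9.5 cells at 103 UPM in Ctrl and at 134 UPM in cKO. The sources used here do not place the deleted part of Tbx1 within the 3′ tags, so Tbx1 UMIs do not check the genotype labels.

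Aplnr was higher in endothelial cells than in mesoderm in all 4 libraries, and its mesoderm level was higher at E8.5 than at E9.5 in both genotypes. Its level in endothelial cells was 82.0 UPM in Ctrl E8.5 (95% counting interval 57.1 to 114; 35 UMIs), 103 for cKO E8.5 (70.6 to 146; 32 UMIs), 275 in Ctrl E9.5 (263 to 288; 1846 UMIs) and 263 for cKO E9.5 (235 to 293; 321 UMIs). In mesoderm it was 39.0 UPM in Ctrl E8.5 (36.4 to 41.8; 820 UMIs), 23.1 for cKO E8.5 (21.2 to 25.1; 539 UMIs), 12.6 in Ctrl E9.5 (11.7 to 13.5; 836 UMIs) and 3.54 for cKO E9.5 (3.17 to 3.95; 321 UMIs). The order of the endothelial levels was E9.5 above E8.5, with the genotypes of each stage overlapping in their intervals, whereas the 4 mesoderm levels were all apart, with Ctrl E8.5 highest and cKO E9.5 lowest. All intervals cover counting error only and none covers the spread between embryos.

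The endothelial-to-mesoderm ratio of Aplnr was larger at E9.5 than at E8.5 in both genotypes. On the log2 scale it was 1.07 (0.54 to 1.56) in Ctrl E8.5, 2.16 (1.60 to 2.68) in cKO E8.5, 4.45 (4.33 to 4.57) in Ctrl E9.5, with 6.21 (5.99 to 6.44) in cKO E9.5, the last a 74.2-fold and the one before a 21.9-fold ratio. Genes at least 2-fold higher in endothelial cells made up 10.3%, 12.7%, 9.38% and 10.9% of the genes compared in these libraries, and in cKO E9.5 63 of 13704 genes had a higher ratio than Aplnr. From E8.5 to E9.5 endothelial Aplnr was higher by 1.75 log2 units in Ctrl (1.27 to 2.27) and by 1.35 in cKO (0.82 to 1.92), where 14.3% and 9.24% of genes were at least 2-fold higher. Over the same interval mesoderm Aplnr was at a log2 ratio of -1.63 in Ctrl (-1.77 to -1.49) and -2.70 in cKO (-2.91 to -2.50), where 3.77% and 6.22% of genes were at least 2-fold lower. The median of all genes in these mesoderm comparisons was 0.35 in Ctrl and 0.05 in cKO, so relative to it the ratios were -1.98 and -2.75.

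**Figure D1:**
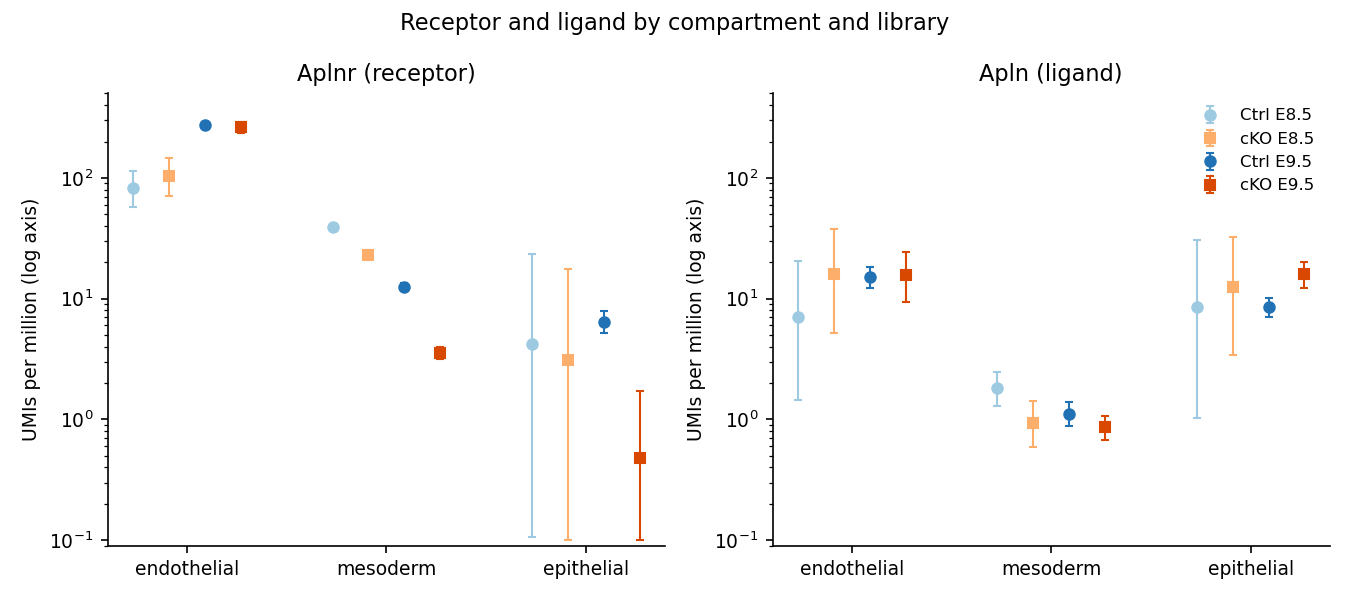
Level of Aplnr (left) and Apln (right) in UPM on a log axis, in endothelial, mesoderm and epithelial cells of the 4 libraries; points are ratios of sums and bars 95% Poisson intervals, drawn down to 0.1. Aplnr is highest in endothelial cells of both E9.5 libraries (275 and 263) and steps down in mesoderm from 39.0 to 3.54, whereas Apln is higher in endothelial and epithelial cells than in mesoderm.

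Detection cell by cell gave the same order. With every cell thinned to 10000 UMIs, an Aplnr UMI was found in 13 of 21 endothelial cells of Ctrl E8.5, 9 of 12 of cKO E8.5, 245 of 301 of Ctrl E9.5 (81.4%, exact binomial interval 76.5 to 85.6) and 49 of 62 of cKO E9.5 (79.0%, 66.8 to 88.3). In mesoderm the shares were 26.5% (288 of 1088 cells), 16.9% (156 of 923), 7.52% (268 of 3564) and 2.83% (137 of 4834), or 38.4%, 29.9%, 10.3% and 4.13% without thinning. Cells of the neural gate, taken as the background, had an Aplnr UMI in 2 of 35 (5.71%), 0 of 34, 0 of 60 and 0 of 21 thinned cells. The 3 counts of 0 allow shares of up to 8.82%, 5% and 14.3%. The gate also carried mesoderm RNA, so it is not a background free of mesoderm. Its cells held 8 mesoderm markers at 326, 347, 149 and 563 UPM in the order of the libraries. Its 4 neural markers were at 72.6, 54.9, 190 and 96.9 UPM. The mesoderm shares lay above that background in Ctrl E8.5, cKO E8.5 and Ctrl E9.5, while the 2.83% of cKO E9.5 lay below what 0 of 21 neural cells allows and could not be told apart from background by detection. The unthinned median depths of mesoderm and neural cells were 17658.0 and 26451.5 UMIs in Ctrl E8.5, 24154.0 and 32938.5 in cKO E8.5, 16356.5 and 16878.5 in Ctrl E9.5, with 16263.0 and 19964.0 in cKO E9.5. Within endothelium the receptor was broadly spread, since the tenth of cells with the most Aplnr held 26.7% of its UMIs in Ctrl E9.5, with 25.9% in cKO E9.5. In mesoderm of Ctrl E9.5 it was concentrated, with 836 UMIs in 399 of 3892 cells and up to 14 in a cell.

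Between genotypes, Aplnr was lower in cKO mesoderm at both stages, and no difference was detectable in endothelial cells as gated. In mesoderm the cKO/Ctrl log2 ratio was -0.76 at E8.5 (-0.92 to -0.60), when 1.4% of genes were at least 2-fold lower, and -1.83 at E9.5 (-2.02 to -1.64), when 5.92% were. The E9.5 value is a 3.55-fold lower level in cKO, and 232 of 14516 genes had a lower ratio. At E9.5 the median of all genes was itself -0.22 in mesoderm and -0.19 in endothelial cells, and relative to that shift mesoderm Aplnr was at -1.61. With TMM factors (trimmed mean of M-values) in place of totals, genes at least 2-fold higher and lower in mesoderm numbered 792 and 578, against 580 and 859, and in endothelial cells 329 and 581, against 257 and 795. In endothelial cells the ratio was 0.33 at E8.5 (-0.41 to 1.06), beside 4.23% of genes at least 2-fold higher, and -0.07 at E9.5 (-0.24 to 0.10), beside 7.98% of genes at least 2-fold lower. At E8.5, 13 of the 21 Ctrl and 7 of the 13 cKO endothelial cells also passed another gate. Without them the E8.5 ratio was 1.09, above its interval. The endothelial ratio exceeded the mesoderm ratio by 1.76 at E9.5 (1.5 to 2.02), and by 1.09 at E8.5 (0.33 to 1.84), where it rested on 32 and 35 endothelial UMIs. The mesoderm ratio at E9.5 was lower than that at E8.5 by a log2 difference of -1.07 (-1.32 to -0.82).

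The gene table of cKO E9.5 listed 31053 identifiers and each of the other 3 listed 27998, so at E9.5 genotype also goes with a different gene table. Single genes could differ widely between these tables in every gate, as the glycolysis gene Pgk1 did, at a cKO/Ctrl log2 ratio of 3.82 in mesoderm and 3.80 in endothelial cells. In the same tables the ratio of Aplnr was -1.83 in mesoderm and -0.07 in endothelial cells, and the part that the differing tables play in it was not tested. At E8.5, where both tables listed the same number of genes, the mesoderm ratio was -0.76.

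The endothelial markers in mesoderm were also lower in cKO E9.5, at 93.3 against 143 UPM, with none of the 8 at 0 in either. When mesoderm was limited to cells with no Cdh5 or Pecam1 UMI and under 3 UMIs of the 8 markers together, a limit added after the levels had been seen, 2583 Ctrl and 4206 cKO cells remained at E9.5 and the marker sums were 64.4 and 53.4 UPM. Aplnr was then 15.1 UPM in Ctrl and 3.29 in cKO, with a log2 ratio of -2.20 (-2.42 to -1.98). The limit kept 66.4% of Ctrl and 79.6% of cKO mesoderm cells and lowered their endothelial marker RNA without removing it. The part that such RNA plays in the Aplnr ratio was not tested. At E8.5 the same limit gave 39.4 and 25.0 UPM and a ratio of -0.65 (-0.89 to -0.42).

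Mesoderm was then divided by further gates, named for the genes that set them. The cardiomyocyte gate used the contractile genes Tnnt2, Tnni1 and Myl7, and the branchiomeric muscle gate used Tcf21 and Msc, transcription factors of head muscle progenitors. The Arg1 gate took cells with the urea cycle enzyme arginase 1, the Isl1 gate took the second heart field factor Isl1, and the somitic gate took Tcf15 and Meox1, transcription factors of somites. A posterior heart field gate (Tbx5, Hoxb1 and Wnt2) held only 14, 6, 10 and 46 cells in the order of the libraries, with 14, 5, 1 and 1 Aplnr UMIs. Among gates of at least 50 cells, Aplnr in Ctrl E8.5 was highest in the cardiomyocyte gate, at 85.1 UPM (70.6 to 102; 74 cells), and in the Arg1 gate, at 58.0 (52.5 to 63.9; 370 cells). It followed at 35.2 in the somitic gate, 31.5 in the branchiomeric muscle gate and 24.5 in the Isl1 gate, 3 neighbours whose intervals overlapped, and lay lowest in the other mesoderm, at 17.6 (14.7 to 20.8).

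In Ctrl E9.5 the receptor was found at a high level in fewer gates. The Arg1 gate stood at 52.2 UPM (46.8 to 58.2; 332 UMIs in 366 cells) and the cardiomyocyte gate at 40.3 (35.2 to 46.0; 222 UMIs in 311 cells). Below them came branchiomeric muscle at 15.4, Isl1 at 5.91, other mesoderm at 3.49 and the somitic gate at 1.11, the last from 7 UMIs in 366 cells. From E8.5 to E9.5 in Ctrl the log2 ratio was -0.15 in the Arg1 gate (-0.36 to 0.06) and -0.49 relative to the median of all genes there, -1.08 in the cardiomyocyte gate (-1.41 to -0.75), -2.05 in the Isl1 gate (-2.83 to -1.28) and -4.99 in the somitic gate (-6.36 to -3.85). The Arg1 gate was 32.4% of mesoderm cells and held 49.4% of mesoderm Aplnr UMIs at E8.5, and at E9.5 9.4% of cells held 39.7%.

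**Figure D2:**
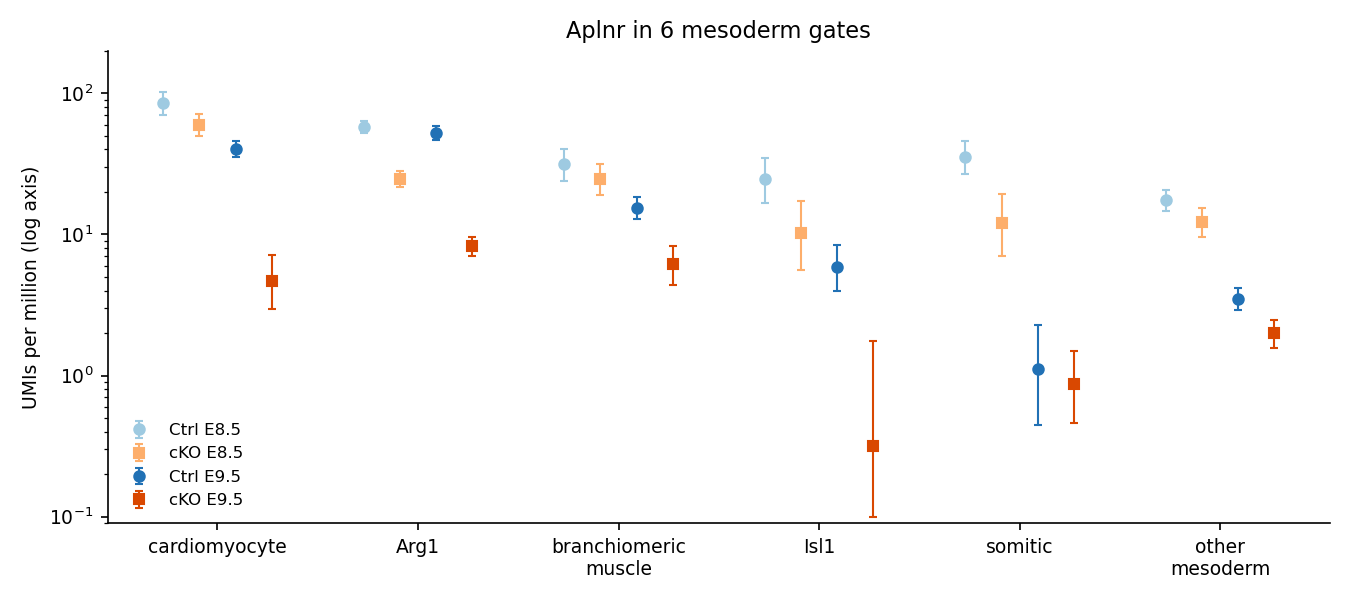
Aplnr level in UPM on a log axis in 6 mesoderm gates of the 4 libraries, with 95% Poisson intervals drawn down to 0.1. In every gate cKO lies below Ctrl of the same stage, and at E9.5 the Arg1 (52.2 and 8.28), cardiomyocyte (40.3 and 4.71) and Isl1 (5.91 and 0.315) gates stand well apart between genotypes while the somitic intervals overlap.

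At E9.5 the counting interval of the cKO/Ctrl ratio lay below 0 in each mesoderm gate of at least 50 cells other than the somitic. The cardiomyocyte gate held 40.3 UPM in Ctrl and 4.71 in cKO (222 and 22 UMIs), a log2 ratio of -3.10 (-3.80 to -2.46). The Arg1 gate held 52.2 and 8.28 UPM (332 and 161 UMIs), a ratio of -2.66 (-2.94 to -2.38), and the Isl1 gate 5.91 and 0.315 UPM (29 UMIs against 1), a ratio of -4.23 with an interval from -9.58 to -1.64. Branchiomeric muscle was at -1.33 (-1.87 to -0.81), other mesoderm at -0.81 (-1.23 to -0.39) and the somitic gate at -0.35 (-1.78 to 1.21). Genes at least 2-fold lower made up 5.8% of genes in the cardiomyocyte gate, 5.82% in the Arg1 gate, 7.53% in the Isl1 gate and 6.58% in branchiomeric muscle. The Arg1 ratio was below that of branchiomeric muscle by a log2 difference of -1.33 (-1.92 to -0.72) and below that of other mesoderm by -1.85 (-2.35 to -1.34), and its difference from the cardiomyocyte ratio was 0.44 (-0.26 to 1.20).

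At E8.5 the ratios were nearer to 0 in the cardiomyocyte, Arg1, Isl1 and branchiomeric muscle gates. The Arg1 gate was at 58.0 UPM in Ctrl and 24.6 in cKO, a log2 ratio of -1.24 (-1.48 to -1.0), where 1.33% of genes were at least 2-fold lower. The somitic gate was at 35.2 and 12 UPM and a ratio of -1.56 (-2.43 to -0.75), and the Isl1 gate at 24.5 and 10.3 UPM and a ratio of -1.25 (-2.27 to -0.30). The cardiomyocyte gate was at -0.51 (-0.88 to -0.14) and branchiomeric muscle at -0.35 (-0.88 to 0.17). The stage difference in these ratios was -2.59 in the cardiomyocyte gate (-3.38 to -1.83) and -1.42 in the Arg1 gate (-1.79 to -1.05).

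**Figure D3:**
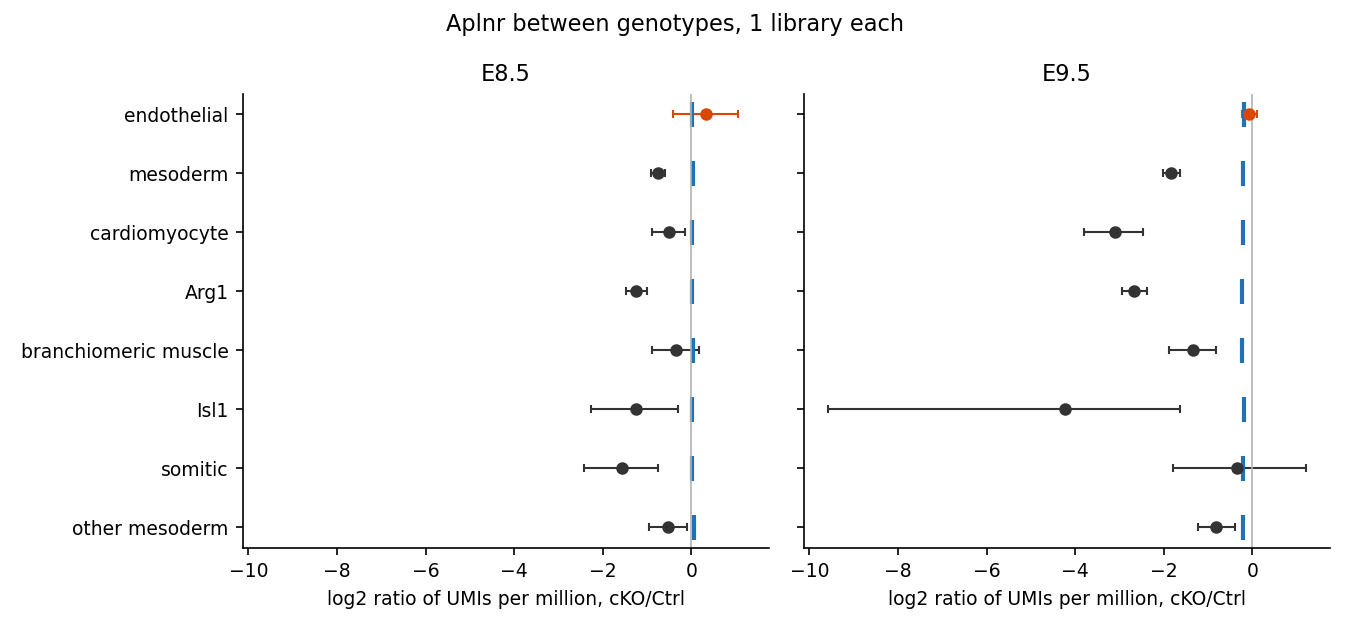
Log2 ratio of the Aplnr level (UPM) in cKO over Ctrl by gate, with E8.5 in the left panel and E9.5 in the right; points are ratios of sums, bars exact 95% binomial intervals from counts, and blue ticks the median of all genes compared in that gate. Endothelial cells (orange) lie near 0 at E9.5 (-0.07), while the cardiomyocyte (-3.10) and Arg1 (-2.66) gates lie far below the ticks.

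The makeup of mesoderm differed between the E9.5 libraries too. The Arg1 gate held 366 of 3892 mesoderm cells in Ctrl (9.4%) and 1091 of 5282 in cKO (20.7%), so the gate with the most Aplnr in Ctrl was more frequent in cKO while its level was lower. The somitic gate, with the lowest Aplnr level in Ctrl at this stage, was 9.4% of mesoderm cells in Ctrl and 16.8% in cKO, and the cardiomyocyte gate 7.99% and 4.56%. With both libraries weighted by the cell shares of Ctrl, the mesoderm ratio of Aplnr was -2.03, against -1.83 unweighted. Under the limit on endothelial marker UMIs above, the Arg1 ratio was -2.90 (-3.22 to -2.59) and the cardiomyocyte ratio -3.28 (-4.05 to -2.59), with the markers still at 55.8 UPM in Ctrl and 49.8 in cKO in the Arg1 cells kept. Whether Arg1 cells of both genotypes are the same cells was not tested, since Arg1 set the gate.

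Cells with an Aplnr UMI differed from the rest of the mesoderm in genes of the heart and pharynx, a list whose Isl1, Tcf21, Hand2, Foxf1 and Tnnt2 also set the mesoderm gate. Of 19 genes of heart and pharyngeal mesoderm, 13 were at least 2-fold higher in Aplnr-positive than in Aplnr-negative cells of Ctrl E9.5 mesoderm (268 and 3296 thinned cells; median log2 ratio 1.30), where 4.43% of all genes were. Arg1 and Hoxb1 of the list also set finer gates. The corresponding counts were 6 of 18 tested in Ctrl E8.5 (median 0.89, all genes 1.49%), 5 of 18 in cKO E8.5 (0.68, 2.04%) and 8 of 19 in cKO E9.5 (0.93, 4.1%). In Ctrl E9.5 the highest ratios were those of Hoxb1 (4.07, 3.59 to 4.55), a homeobox gene of the posterior second heart field, and Arg1 (2.91, 2.76 to 3.05). Nrg1, an ERBB ligand, was at 2.40 (2.04 to 2.76), Rdh10, a retinoic acid synthesis enzyme, at 2.34 (2.11 to 2.56) and the second heart field growth factor Fgf10 at 1.84 (1.41 to 2.25). Msx1, a homeobox gene of arch mesenchyme, was at -1.76 (-2.41 to -1.18) and Tnnt2, a contractile gene, at -0.54 (-0.80 to -0.29). A cell without an Aplnr UMI may still express the gene, and the split is by detection, so these ratios describe the split and carry no test.

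Hoxb1 and Nrg1 were also higher in the Aplnr-positive cells of cKO E9.5, of which there were fewer. Among 137 positive and 4697 negative cells, the ratio was 2.09 (1.73 to 2.43) for Hoxb1, 2.29 (1.64 to 2.89) for Nrg1, 2.02 (1.68 to 2.34) for Rdh10 and 1.93 (0.82 to 2.87) for Fgf10. Tnnt2, by contrast, was at -2.75 in cKO (-4.20 to -1.62; 6 UMIs in the positive cells). Across all mesoderm of E9.5, cKO/Ctrl was at -1.84 for Fgf10, -1.31 for Tnnt2, -1.26 for Nkx2-5 and -1.10 for Nrg1. These were the 4 genes of the 19 that were at least 2-fold lower (all genes, 5.92%). Hoxb1, at 1.86, was the only 1 that was at least 2-fold higher (all genes, 4%). Isl1, Tcf21, Hand2, Foxf1 and Tnnt2 set the gate in which this comparison was made. At E8.5 none of the 19 was past 2-fold in either direction between genotypes, beside 1.4% of all genes lower and 2.96% higher.

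Within the Arg1 gate, cells with and without an Aplnr UMI also differed in genes of the same list. Of its 19 genes of heart and pharyngeal mesoderm, 9 of 17 tested were at least 2-fold higher in Ctrl E8.5, 7 of 15 in cKO E8.5, 8 of 17 in Ctrl E9.5 and, with cKO E9.5, 8 of 18, beside 1.44%, 2.26%, 2% and 3.57% of all genes. Fgf10, a second heart field growth factor, was at log2 ratios of 1.43 (0.44 to 2.46), 1.48 (0.23 to 2.68), 2.47 (1.39 to 3.61) and 2.88 (1.35 to 4.27) in that order, and the transcription factor gene Mef2c at 1.35, 1.36, 1.36 and 1.05. Tbx5, a gene of the posterior heart field, was at -2.80 in Ctrl E9.5 (-5.89 to -0.86; 2 UMIs in the positive cells). These genes were named after their values were seen.

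Early endothelial genes differed between the libraries in how they went with Aplnr in mesoderm. In Aplnr-positive mesoderm cells of Ctrl E9.5, 3 of the 5 tested genes of the early endothelium list were at least 2-fold higher, namely Tal1 (2.06, 1.31 to 2.76), Etv2 (1.34, 0.88 to 1.77) and Lmo2 (1.06, 0.72 to 1.38), all regulators of blood and vessel progenitors, beside 4.43% of all genes. In cKO E9.5 they were 2 of 5, Lmo2 at 1.14 (0.51 to 1.71) and Tal1 at 1.46 (-1.67 to 3.46; 2 UMIs in the positive cells), beside 4.1%, and the median of the list was 0.02 against 1.06 in Ctrl. At E8.5 none was at least 2-fold higher, of 4 tested in Ctrl (median -0.64) and 5 in cKO (median -0.04), beside 1.49% and 2.04%. Mesoderm cells with at least 3 UMIs of Etv2, Tal1 and Lmo2 together, a group also defined after the levels had been seen, had less Aplnr than the other mesoderm cells at E8.5, at 21.0 against 41.7 UPM in Ctrl and 13.8 against 24.5 in cKO. At E9.5 the levels were 13.3 (9.29 to 18.6) against 12.5 UPM in Ctrl and 6.37 (3.39 to 10.9) against 3.48 in cKO. In the Ctrl E9.5 split Fli1, an ETS factor of endothelium, was at -1.70 (-2.21 to -1.24). The VEGF receptor gene Kdr was at 1.26 (0.80 to 1.70). Cells that passed no gate but held at least 10 UMIs of the 8 endothelial markers, a group defined after the levels had been seen, had Aplnr at 46.8, 42.1, 119 and 80.7 UPM in the order of the libraries (31, 12, 76 and 38 cells). These levels lay between the mesoderm and endothelial levels of each E9.5 library, and their interval in cKO E9.5 (59.3 to 107) met that in Ctrl E9.5 (100 to 139).

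Within endothelium, Aplnr was higher in cells with venous genes and lower in cells with arterial genes. Comparing 245 positive with 56 negative endothelial cells of Ctrl E9.5, 5 of the 7 arterial genes tested were at least 2-fold lower in the positive cells (median log2 ratio -1.98), where 4.1% of all genes were. The gap junction genes Gja5 and Gja4 were at -4.71 (-6.11 to -3.55) and -2.56 (-3.14 to -1.99), the NOTCH target Hey1 at -2.42 (-2.81 to -2.03) and the NOTCH ligand Dll4 at -1.98 (-2.65 to -1.31). All 5 venous genes lay above 0 and 2 were at least 2-fold higher (median 0.78, with 3.99% of all genes 2-fold higher). These were Nr2f2, the venous fate regulator, at 1.48 (0.84 to 2.20) and the semaphorin receptor Nrp2 at 1.03 (0.52 to 1.58).

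Tip cell and endocardial genes were also more often lower than higher in Aplnr-positive cells. Of 12 tip genes tested, 5 were at least 2-fold lower, with Esm1, a secreted tip marker, at -2.35 (-3.11 to -1.61), while Kdr was at 0.10 (-0.19 to 0.41). Of 4 endocardial genes, 2 were lower, Tmem100 at -4.20 (-5.96 to -2.75) and Npr3 at -1.46 (-2.0 to -0.90), whereas Hapln1, a matrix link protein of the endocardial cushions, was at -0.28 (-0.50 to -0.06). The 6 early endothelial genes showed no 2-fold difference, from -0.49 for Erg to 0.31 for Tal1. cKO E9.5 held 13 negative endothelial cells after thinning, and no such split was made there.

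**Figure D4:**
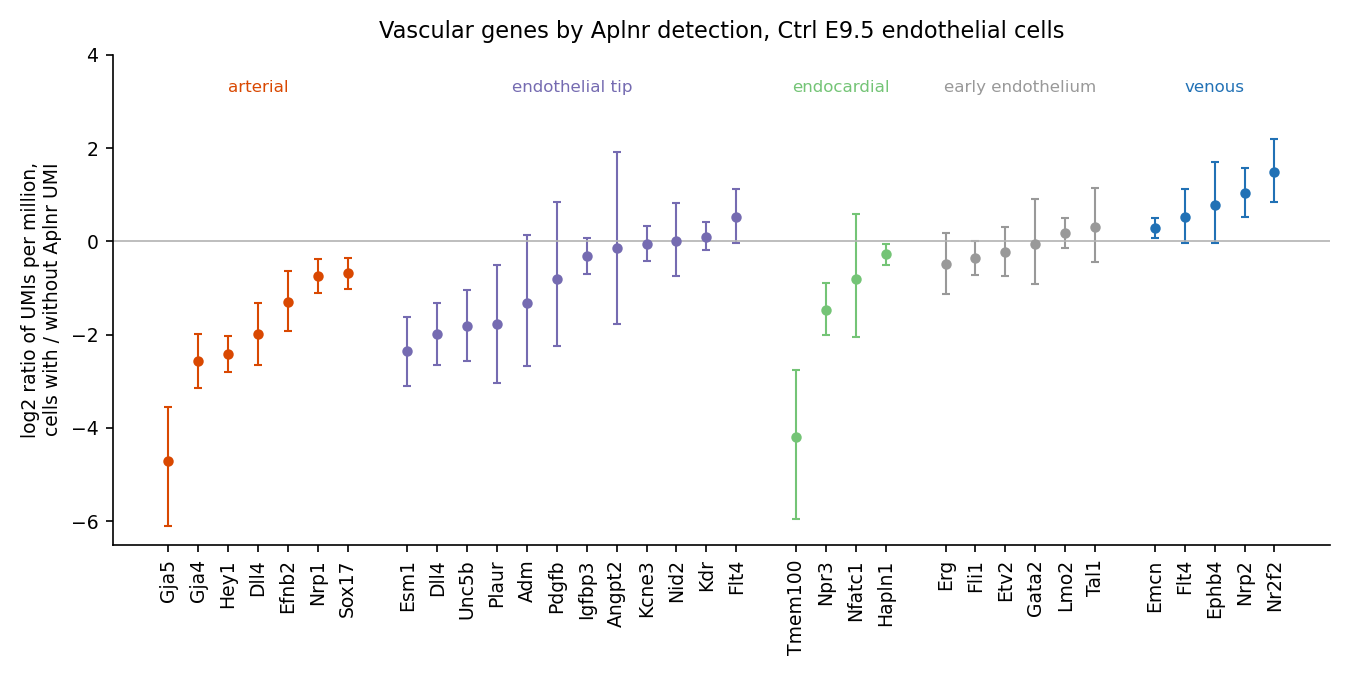
Log2 ratio of the level (UPM) between endothelial cells with and without an Aplnr UMI in Ctrl E9.5, for each tested gene of 5 vascular lists, with exact 95% binomial intervals. The 7 arterial genes all lie below 0, down to -4.71 for Gja5, and the 5 venous genes all lie above 0, up to 1.48 for Nr2f2; Dll4 and Flt4 belong to 2 lists each and appear in both.

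At E9.5 arterial genes were mostly lower in cKO endothelium, where Aplnr was not, and lower in cKO mesoderm. Gja4 was an exception in endothelial cells, at 0.04 (-0.47 to 0.52). In endothelial cells of E9.5, 3 of the 7 arterial genes tested were at least 2-fold lower in cKO (median -0.91, against -0.19 over all genes, of which 7.98% were as low), namely Gja5 (-1.16, -2.52 to -0.06), Hey1 (-1.11, -1.61 to -0.64) and Nrp1 (-1.07, -1.47 to -0.68), a neuropilin that binds VEGF and semaphorins. With TMM factors, which add 0.12 to each of these ratios, Gja5 alone stayed past 2-fold. In E9.5 mesoderm every tested arterial gene was below 0 as well. Gja5 was at -0.86 there, Hey1 at -0.74, Nrp1 at -1.06 and Dll4 at -2.28. In Ctrl mesoderm Gja5 and Dll4 were scarce, at 0.241 and 0.858 UPM, while Hey1 and Nrp1 were at 35.9 and 51.4. The 8 endothelial markers in that gate were also lower in cKO, at 93.3 against 143 UPM. The part that such RNA plays in the mesoderm ratios was not tested. None of the 5 venous genes was past 2-fold, from Ephb4 at -0.55 to Flt4 at 0.31. The tip marker Esm1 was at -1.15 (-2.25 to -0.22). Of the early endothelial genes, the ETS factor gene Erg was at -3.65 (4 UMIs in cKO and 276 in Ctrl) and at -3.62 in mesoderm, and the part that the differing gene tables play in this value was not tested. Endothelial cells were 317 in Ctrl and 69 in cKO, and the part that this difference in recovery played was not tested.

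Apln was scarce everywhere, and at E9.5 endothelial and epithelial cells of both genotypes held more of its UMIs than their number gives. In endothelial cells it stood at 7.03 UPM in Ctrl E8.5 (3 UMIs), 16.1 for cKO E8.5 (5 UMIs), 15.1 in Ctrl E9.5 (12.3 to 18.3; 101 UMIs) and 15.6 for cKO E9.5 (9.36 to 24.3; 19 UMIs). In epithelial cells it stood at 8.48 UPM (2 UMIs), 12.5 (4 UMIs), 8.52 (7.08 to 10.2; 123 UMIs in 740 cells) and 15.9 (12.3 to 20.2; 67 UMIs in 208 cells). In mesoderm it stood at 1.81 UPM (1.28 to 2.48; 38 UMIs), 0.942 (0.59 to 1.43; 22 UMIs), 1.11 (0.874 to 1.40; 74 UMIs) and 0.861 (0.68 to 1.07; 78 UMIs). In cells of the neural gate, which also carried mesoderm markers, it stood at 3.02 UPM (3 UMIs), 0.886 (1 UMI), 10.3 (5.47 to 17.6; 13 UMIs in 64 cells, 5 of them in 1 cell) and 1.79 (0.0454 to 10.0; 1 UMI). The neural level of Ctrl E9.5 thus overlapped the epithelial and endothelial levels in its interval. Mesoderm was the lowest of the endothelial, epithelial and mesoderm compartments in each library, although at E8.5 the endothelial and epithelial levels rested on 5 or fewer UMIs each.

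At E9.5 the endothelial level exceeded the mesoderm level of Apln by 3.76 log2 units in Ctrl (3.31 to 4.21) and 4.18 in cKO (3.37 to 4.91), 13.5-fold and 18.1-fold. The epithelial level exceeded it by 2.94 in Ctrl (2.51 to 3.37) and 4.21 in cKO (3.72 to 4.70). At E8.5 the endothelial-to-mesoderm ratio was 1.96 in Ctrl (-0.38 to 3.61) and 4.10 in cKO (2.34 to 5.53), and in cKO a single cell held 4 of the 5 UMIs. Without the cell with the most Apln on each side, an alternative added after seeing the data, the cKO E8.5 ratio was 2.0. In thinned cells of E9.5, Apln was detected in 33 of 301 endothelial cells of Ctrl (11.0%) and 6 of 62 of cKO (9.68%), in 46 of 709 (6.49%) and 24 of 203 (11.8%) epithelial cells, and in 0.898% and 0.807% of mesoderm cells.

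By source, most of the ligand's UMIs at E9.5 came from 3 compartments. Of 323 Apln UMIs in Ctrl E9.5, epithelial cells held 38.1% (32.8 to 43.6), endothelial cells 31.3% (26.3 to 36.6) and mesoderm 22.9% (18.4 to 27.9). These compartments were 13.6%, 5.81% and 71.4% of barcodes. Neural cells, 1.17% of barcodes, held 4.02% (2.16 to 6.78). Of 173 Apln UMIs in cKO E9.5, epithelial cells held 38.7% (31.4 to 46.4) while being 3.32% of barcodes, endothelial cells held 11.0% (6.74 to 16.6) while being 1.1%, and mesoderm held 45.1% (37.5 to 52.8) while being 84.3%. At E8.5 mesoderm held 69.1% of 55 Apln UMIs in Ctrl (55.2 to 80.9) and 66.7% of 33 in cKO (48.2 to 82). It was 79.6% and 86.7% of barcodes, so only the cKO interval lay below the share of barcodes. Cells that passed no gate held 16.4% of the Ctrl E8.5 UMIs (9 UMIs; 7.77 to 28.8) and were 15.5% of its barcodes. The share of a compartment moves with its recovery by dissection and sorting, so the levels above carry the comparison between genotypes.

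Receptor UMIs were distributed otherwise. At E8.5 mesoderm held 87.9% of 933 Aplnr UMIs in Ctrl and 91.4% of 590 in cKO. At E9.5 endothelial cells held 62.7% of 2945 in Ctrl and 45.9% of 700 in cKO, and mesoderm 28.4% and 45.9%.

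**Figure D5:**
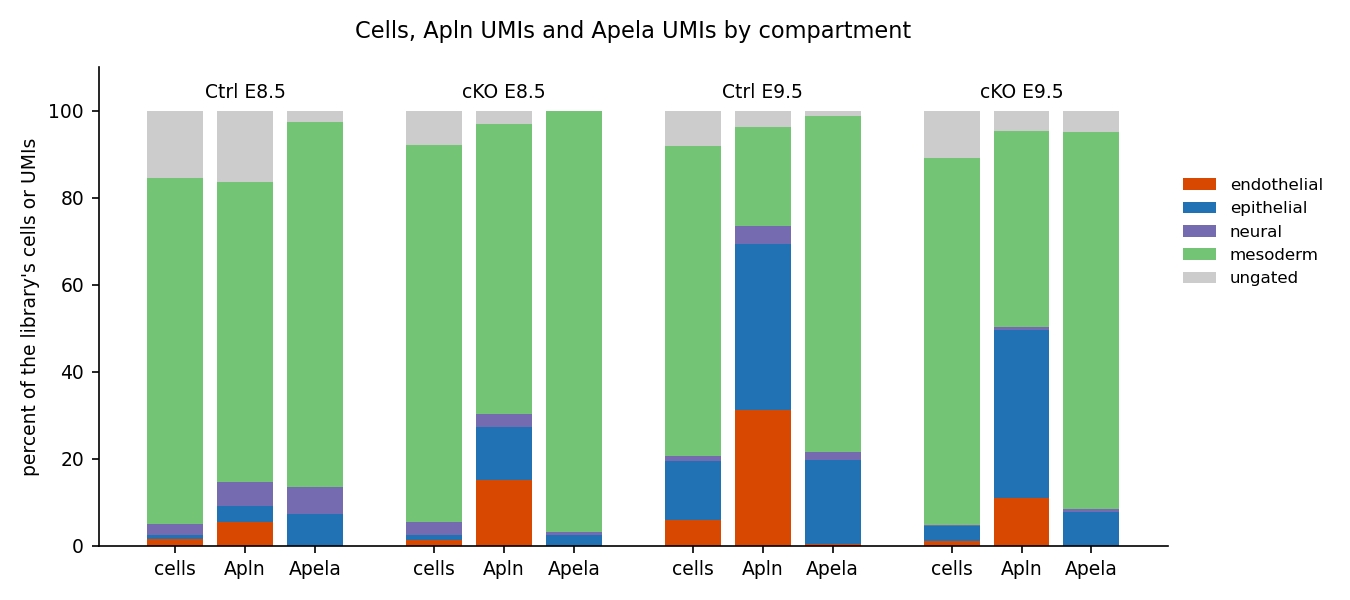
Percent of each library's cells, Apln UMIs and Apela UMIs that fall in each compartment (stacked bars; the single blood-gate cell is not drawn). At E9.5 endothelial and epithelial cells take larger parts of the Apln bar (31.3% and 38.1% in Ctrl) than of the cell bar (5.81% and 13.6%), whereas the mesoderm part of the Apela bar (77.3% in Ctrl) lies near that of the cell bar (71.4%).

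Between genotypes Apln differed in epithelial cells and the Arg1 gate at E9.5 and in mesoderm at E8.5, but not detectably in endothelium. In epithelial cells of E9.5 the cKO/Ctrl log2 ratio was 0.90 (0.45 to 1.34), or 1.10 relative to the median of all genes, where 3.43% of genes were at least 2-fold higher. In endothelial cells it was 0.05 (-0.74 to 0.76). In mesoderm it was -0.94 at E8.5 (-1.77 to -0.15) and -0.37 at E9.5 (-0.85 to 0.11). The epithelial ratio at E9.5 exceeded the mesoderm ratio by 1.27 (0.61 to 1.94). In the Arg1 gate of E9.5 Apln was at 4.09 UPM in Ctrl and 0.926 in cKO (26 and 18 UMIs), a ratio of -2.14 (-3.10 to -1.22). A single Ctrl cell of that gate held 11 of the 26 UMIs, and without the cell with the most Apln on each side the levels were 2.37 and 0.825 UPM and the ratio -1.52 (-2.63 to -0.40).

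The epithelial gate of E9.5 also differed in makeup between genotypes. Its 4 epithelial markers summed to 1231.0 UPM in Ctrl and 875 in cKO, and its 4 neural markers to 23.2 and 139. The part that this plays in the Apln ratio was not tested. The gate was then divided, after its Apln difference had been seen. Cells with at least 2 UMIs of otic genes held Apln at 13.1 UPM in Ctrl E9.5 but at 30.9 in cKO E9.5 (45 and 21 UMIs; log2 ratio 1.23, 0.41 to 2.01), and cells with neither otic nor endoderm genes 7.51 and 14.8 (71 and 45 UMIs; 0.98, 0.41 to 1.54). Cells with endoderm genes were low, with 7 UMIs in 84 Ctrl cells and 1 in 22 cKO cells. Apln lay mainly in epithelial cells with a UMI of Hoxb1, a homeobox gene of the hindbrain level and posterior pharynx. Its level there was 20.4 UPM in Ctrl and 28.3 in cKO, against 3.03 and 3.76 in cells without one, log2 ratios of 2.75 (2.14 to 3.40) and 2.91 (1.84 to 4.19). Hoxb1-positive cells were 29.5% of epithelial cells in Ctrl and 47.6% in cKO, and within them the cKO/Ctrl ratio of Apln was 0.47 (-0.03 to 0.96). Without a Hoxb1 UMI it was 0.31 (-1.03 to 1.47), so neither subset alone showed a difference beyond its counting interval.

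Aplnr in epithelial cells followed the opposite direction. It stood at 6.44 UPM in Ctrl E9.5 (93 UMIs in 45 of 740 cells) and 0.475 for cKO E9.5 (2 UMIs in 208 cells), a log2 ratio of -3.76 (-6.83 to -1.87), where 5.87% of genes were at least 2-fold lower. In Ctrl 81 of those UMIs lay in the 218 Hoxb1-positive cells, at 17.8 UPM, and cKO had 0 in 99 such cells. After thinning, the share of epithelial cells with an Aplnr UMI was 4.51% in Ctrl (32 of 709) and 0.493% in cKO (1 of 203). Both shares lay within what the neural cells of the same library allow (5% and 14.3%), a bound from few cells that also carried mesoderm markers. Without thinning, 12 Ctrl epithelial cells held 3 or more Aplnr UMIs, with up to 11 in a cell.

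Receptor and ligand were found in the same endothelial cells about as often as their separate frequencies give. In Ctrl E9.5, 28 of 301 thinned endothelial cells held UMIs of both (9.3%, 6.27 to 13.2), and the product of the shares was 8.92%. In cKO E9.5 there were 5 of 62 (8.06%, 2.67 to 17.8) beside a product of 7.65%. In mesoderm the counts were 3, 3, 3 and 2 cells in the order of the libraries. Compared with Apln-negative cells, the 33 Apln-positive endothelial cells of Ctrl E9.5 had Plaur, the urokinase receptor gene of tip cells, at 1.66 (0.16 to 2.99), Igfbp3 at 0.75 (0.31 to 1.18) and the potassium channel subunit gene Kcne3 at 0.46 (0.02 to 0.87). Gja4 was at -2.71 (-5.77 to -0.82) from 2 UMIs in the positive cells. Only 1 of 12 tip genes was at least 2-fold higher and 2 were lower, beside 2.59% and 7.44% of all genes. The 2 lower were Dll4 (-1.23, -3.14 to 0.19) and Pdgfb (-1.30, -6.67 to 1.34).

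Apela is the gene of the other ligand (ENSMUSG00000079042, chromosome 8 from 65028417 to 65037336). Endothelial cells held 0, 0, 2 and 0 of its UMIs in the order of the libraries. It was nearly absent from those of Ctrl E9.5, at 0.298 UPM. The 21, 13 and 69 endothelial cells of Ctrl E8.5, cKO E8.5 and cKO E9.5 are too few for a count of 0 to show absence. Mesoderm held 84.1%, 96.9%, 77.3% and 86.7% of Apela UMIs, beside 83.2%, 90.8%, 70.5% and 86.6% of the UMIs of all genes. Epithelial cells held it at 25.4 UPM (9.33 to 55.3; 6 UMIs), 15.7 (5.09 to 36.6; 5 UMIs), 5.40 (4.27 to 6.74; 78 UMIs) and 4.99 (3.09 to 7.62; 21 UMIs). Its mesoderm level was 3.29 UPM in Ctrl E8.5 (69 UMIs), 8.09 for cKO E8.5 (189 UMIs), 4.71 in Ctrl E9.5 (313 UMIs) and 2.58 for cKO E9.5 (234 UMIs). The epithelial level was above the mesoderm level in each library, with overlapping intervals in cKO E8.5 and Ctrl E9.5. In mesoderm the cKO/Ctrl log2 ratio was 1.30 at E8.5 (0.90 to 1.72), past 2-fold as 2.96% of genes were, and -0.87 at E9.5 (-1.12 to -0.62), or -0.65 relative to the median of all genes. The difference between the stages was -2.17 (-2.66 to -1.68).

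The cardiomyocyte gate held Apela at 19.9, 37.8, 27.6 and 29.5 UPM in the order of the libraries, with a ratio of 0.10 at E9.5 (-0.25 to 0.44). In the same cells Aplnr was at -3.10. In the Arg1 gate Apela was at 1.72, 5.65, 15.4 and 2.52 UPM, with a ratio of 1.72 at E8.5 (0.80 to 2.76) and -2.61 at E9.5 (-3.14 to -2.10). Epithelial cells with endoderm genes held it at 33.9 UPM in Ctrl E9.5, with 42.4 in cKO E9.5.

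Of the other genes of the apelin system, none was past 2-fold between genotypes in E9.5 mesoderm, beside 5.92% of all genes lower and 4% higher. Of the 17 listed genes, 15 passed the filter of 20 UMIs there (median log2 ratio -0.37, against -0.22 over all genes). The list covers Apela, the proprotein convertases that can cut the ligands, peptidases, the G proteins and arrestins of the receptor and the angiotensin receptors as its nearest relatives. Among the G proteins Gnai2 was at -0.42 (217 UPM in Ctrl, 162 in cKO), Gnai3 at -0.69, Gnai1 at -0.37, Gnaq at -0.06 and Gna13 at -0.07. The arrestins Arrb1 and Arrb2 were at -0.35 and -0.59, and the receptor kinase gene Grk2, listed as Adrbk1, at 0.08. The convertases Furin, Pcsk5, Pcsk6 and Pcsk7 were at -0.34, -0.64, -0.82 and 0.24. The peptidase gene Mme was at -0.75, and Agtr1a at -0.31. Agtr1b had 1 UMI or none in mesoderm of each library.

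At E8.5 the 15 tested genes in mesoderm included 2 past 2-fold, both higher in cKO, Apela and Agtr1a (17 and 5 UMIs; 1.61, 0.11 to 3.41), beside 2.96% of all genes higher and 1.4% lower. The rest lay between -0.33 for Gnai1 and 0.61 for Mme. In endothelial cells of E9.5, 2 of 11 tested genes were at least 2-fold higher in cKO, Furin at 1.13 (0.35 to 1.87; 22 and 55 UMIs) and Pcsk6 at 1.02 (-0.19 to 2.12; 10 and 27 UMIs), beside 2.58% of all genes, and the median was -0.17. Endothelial cells of Ctrl E9.5 differed from mesoderm in carrying more Gnai2 (1.34, 1.29 to 1.39) and less Apela (-3.98), Mme (-3.69), Pcsk5 (-3.12) and Agtr1a (-3.05), with the other 10 of the 15 tested genes within 2-fold, beside 18.2% of all genes at least 2-fold lower in endothelial cells.

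The genes whose levels ran most like Aplnr over 33 library and gate profiles were Fkbp1a (Pearson r 0.87 of log2 levels), Vamp5 (0.84), Anxa2 (0.83), Rasgrp3 (0.82) and Tm6sf1 (0.81), of 13122 genes. For Apln they were Ramp3 (0.89), Ppp1r16b (0.88), Ttc9 (0.88), Npdc1 (0.85) and Slc22a23 (0.85). Receptor and ligand were not close to each other by this measure, with r of 0.32 and with Apln at rank 1470 for Aplnr and Aplnr at rank 2334 for Apln. These values used log2 of UPM plus 10, and with 1 added in place of 10, r was 0.19, the ranks were 2559 and 4139, and 3 of the 5 genes named for each member stayed among its 5 most alike. The profiles share libraries and the split of the same cells, so these values are descriptions.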

How the data were processed

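The deposited files hold whole-number UMI counts per gene and barcode, which the authors made from droplet 3′-end reads with Cell Ranger 3.1.0 on mm10 (GRCm38), per the submitters' processing notes; the headers of both E8.5 matrices name Cell Ranger 3.0.2. The cKO E9.5 table lists 31053 genes and the others 27998. Levels used the 27514 shared identifiers, which hold 99.4 to 99.9% of 25391654 to 104773150 UMIs per library. The members, the gates and the gene lists were chosen with earlier results of these data known.

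Cells were gated on raw UMIs in this order: endothelial (Cdh5 and Pecam1, at least 3), blood (Gata1, Klf1 and 1 gene not reported here, 3), epithelial (Epcam and Cdh1, 3), neural (Sox2, Sox3, Sox10 and Foxd3, 3) and mesoderm (12 genes: Pdgfra, Pdgfrb, Twist1, Foxc1, Foxc2, Tcf21, Isl1, Hand2, Foxf1, Meox1, Tnnt2 and Myf5, 3). Mesoderm was split in the order cardiomyocyte (Tnnt2, Tnni1 and Myl7, 10), branchiomeric muscle (Tcf21 and Msc, 3), Arg1 (2), Isl1 (2), posterior heart field (2), somitic (Tcf15 and Meox1, 3) and other. A level is the sum of the gene's UMIs per 1000000 UMIs of the gate (UPM). With 1 library per group no test was possible, and intervals (95%: exact Poisson for levels, exact conditional binomial for ratios, exact Clopper-Pearson for shares) cover counting error only. Genes with at least 20 UMIs over both sides were compared. A count of 0 was set to 3 counts to give a bound, which was counted past 2-fold only in the direction it bounds, and medians take such a gene at its observed ratio of 0. Detection used cells thinned to 10000 UMIs. Likeness was Pearson's r of log2(UPM + 10) over gates of at least 50 cells, for genes with at least 100 UMIs. The text names both members, the 5 genes most like each, the apelin system genes, the highest and lowest of each list, and further list members chosen after their values were seen. Scrublet (scanpy 1.11.5) marked 24, 6, 4 and 1 cells (1.67, 0.55, 0.0734 and 0.016%), too few at E9.5 to have worked, so the 13, 7, 77 and 10 endothelial cells that passed another gate were left out as an alternative. Ratios were tested on simulated data. Python 3.11.15, numpy 2.4.6, scipy 1.17.1, pandas 2.3.3, matplotlib 3.10.9, R 4.3.3 and edgeR 4.0.16 (TMM factors only) were used.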

Additional observations from a re-analysis of the deposited data

Results flagged for a closer look

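Each value in this section is a difference between log2 cKO/Ctrl ratios that pointed opposite ways in a pair of cell groups or stages. Each group had 1 library, so none of these differences was tested across samples. For Aplnr, the endothelial ratio was 0.33 and the mesoderm ratio -0.76 at E8.5, a difference of 1.09, and the endothelial ratio went from 0.33 at E8.5 to -0.07 at E9.5, a difference of -0.40 whose counting interval (-1.15 to 0.36) holds 0. For Apln, the endothelial ratio stood above the mesoderm ratio by 2.14 at E8.5 (-0.40 to 4.94; 5 and 3 endothelial UMIs) and by 0.42 at E9.5 (-0.51 to 1.30). The Apln ratio of epithelial cells at E9.5, 0.90, stood above that of mesoderm, -0.37, by 1.27 (0.61 to 1.94).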

How the results depend on the processing

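No paired analysis was possible because each group had 1 library. Of the alternative values of the main ratios, shares and gene counts, 326 stayed within the counting interval, or within 1.5-fold for gene counts, and 28 did not; of the detection shares and likeness counts, 4 did and 30 did not. The sign changed in some alternatives for Aplnr cKO/Ctrl in endothelial cells at E8.5 (-0.22 to 1.09) and E9.5 (-0.31 to 0.06). It also changed for Apln cKO/Ctrl at E9.5 in endothelial cells (-0.32 to 0.71) and mesoderm (-0.66 to 0.07). Apln E9.5/E8.5 in endothelial cKO was another such ratio (-0.12 to 0.75). The other endothelial and mesoderm ratios of both members kept their sign. Over its alternatives, Aplnr cKO/Ctrl in E9.5 mesoderm ranged from -2.20 to -1.60 and endothelial/mesoderm in cKO E9.5 from 5.91 to 6.37.

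With TMM and median-of-ratios factors, Aplnr was at -1.62 and -1.60 in cKO/Ctrl mesoderm E9.5, at 4.58 and 4.59 in endothelial/mesoderm Ctrl E9.5, and at -1.91 and -1.94 in E9.5/E8.5 mesoderm Ctrl. The cKO/Ctrl mesoderm value was -2.03 with gates weighted as in Ctrl and -2.20 with mesoderm limited to cells with no Cdh5 or Pecam1 UMI and few endothelial marker UMIs. Without cells of several gates, Aplnr was at 1.09 in cKO/Ctrl endothelial E8.5, 2.95 in endothelial/mesoderm cKO E8.5, 4.66 in endothelial/mesoderm Ctrl E9.5 and 0.71 in E9.5/E8.5 endothelial cKO. With the endothelial gate at 6 UMIs it was at -0.31 in cKO/Ctrl endothelial E9.5, 4.31 and 5.91 in endothelial/mesoderm Ctrl and cKO E9.5, and -1.47 in E9.5/E8.5 mesoderm Ctrl, and Apln was at 5.12 in endothelial/mesoderm cKO E9.5. With no positive mesoderm marker, Aplnr endothelial/mesoderm in Ctrl E9.5 was 4.30. Apln endothelial/mesoderm in cKO E8.5 was 2.0 without its highest cell on each side. The endothelial share of Apln UMIs in Ctrl E9.5 was 24.8% with the gate at 6 UMIs and 17.2% after thinning, and the epithelial share in cKO E9.5 was 28.6% after thinning. With no filter on low counts, 1570 genes were lower and 973 higher in mesoderm E9.5, 999 higher in endothelial E9.5, 702 lower and 902 higher in mesoderm E8.5, and 1947 higher in endothelial/mesoderm Ctrl E9.5. The limit on endothelial UMIs and the removal of the highest cell were chosen after seeing the data. Causes of these shifts were not tested.

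The 21 and 13 endothelial cells of E8.5 limit every value that rests on them, and no value carries the spread between embryos.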

Other observations

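Of 10 genes of the hypoxia response, Pgk1 (3.82) was past 2-fold between genotypes in E9.5 mesoderm, beside 4% of all genes higher and 5.92% lower. The other 9 ranged from -0.74 for Slc2a1 to 0.22 for Ankrd37. In E9.5 endothelial cells Pgk1 was at 3.80 and Slc2a1, a glucose transporter gene, at -0.88 (-1.09 to -0.67). Pgk1 was at 3.89 in E9.5 epithelial cells but at -0.72 in E8.5 mesoderm. The part that the differing gene tables of E9.5 play in the Pgk1 values was not tested.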
